A study of Mus musculus with 237 samples.

Results

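Laminins, nidogens and perlecan are core proteins of the basement membrane, the sheet of matrix that underlies epithelia and surrounds vessels and many stromal cells. The 10 genes described here encode 4 laminin alpha chains (Lama1, Lama2, Lama4 and Lama5), the beta chains Lamb1 and Lamb2, the gamma chain Lamc1, the nidogens Nid1 and Nid2, and perlecan (Hspg2). They were chosen by gene symbol, and each matched 1 of the 36186 gene entries in the deposited table of RPKM, a read abundance corrected for transcript length and for each cell's sequencing depth.

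A laminin is a trimer of an alpha, a beta and a gamma chain, and its name gives the chains in that order, so that laminin-411 is made of Lama4, Lamb1 and Lamc1. Laminins polymerise at the cell surface, nidogens link this network to type IV collagen, and perlecan, a large heparan sulfate proteoglycan, binds both and holds growth factors. In the developing kidney the matrix between the ureteric bud and the cap mesenchyme is needed for branching, laminins with the Lama5 chain line tubules and the glomerulus, and chains such as Lama4 are known from vessels and mesenchyme.

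The study profiled single cells of mouse embryonic kidneys after enzymatic dissociation, sorting and capture in a Fluidigm C1 device. It asks, by its title, how the transcription factor Pax2 sets the boundary between nephron progenitors and interstitium. All cells came from mice of mixed strain. At E18.5, late in gestation, there were 44 Pax2 mutant cells labelled as cap mesenchyme, 71 wild-type interstitial cells, whose titles name FoxD1 GCE, and 74 wild-type cells labelled as cap mesenchyme or derived from it. At E13.5, while branching is under way, there were 29 Pax2 mutant cells labelled as cap mesenchyme and 18 wild-type cap cells. The allele of Pax2 and the number of embryos are not given in the sources used here. Beyond the name FoxD1 GCE in the interstitium titles, neither is the Cre or reporter used for sorting. A further E13.5 wild-type cell, whose labels disagree on its type, was kept out of all comparisons. Because no label ties a cell to an embryo, each group counts as 1 sample. Differences between groups therefore carry no test, and each SD below is a spread between cells.

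Pax2 reached 1 RPKM in 0 of 44 E18.5 mutant cells, against 18 of 71 interstitium and 56 of 74 cap cells, and in 17 of 29 E13.5 mutant cells, against 15 of 18 cap cells. At least 3 of 8 stromal markers were detected in all 44 E18.5 mutant cells, in 68 interstitium cells and in 21 cap cells. At least 3 of 8 nephron progenitor markers were detected in 0 mutant, 23 interstitium and 63 cap cells of E18.5, so the E18.5 mutant cells carried stromal rather than progenitor markers despite their label as cap mesenchyme, and part of the interstitium cells held progenitor markers too. E18.5 mutant cells had a median of 3643 genes at 1 RPKM or more, against 5178 in interstitium and 5210.5 in cap cells, and E13.5 mutant cells had 4560, against 5566 in cap cells. By sex-linked transcripts, 42 E18.5 mutant, 67 E18.5 cap and 27 E13.5 mutant cells held Xist alone, while 70 interstitium and 17 E13.5 cap cells held Y-linked genes alone. Sex and group therefore cannot be told apart in interstitium against E18.5 cap or in the E13.5 comparison. The same holds for the pool numbers in the titles, which separate the E18.5 mutant cells (pool 4) from the E18.5 cap cells (pool 2). Each group also has 1 date in its titles that no other group shares, so date and group cannot be told apart in any comparison, also within a pool.

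The sequences just before an annotated transcription start of each of Nid1, Lamb1 and Lama2 are shown. They were chosen because these 3 genes, with Lama4, were higher by 1 log2 unit or more in E18.5 mutant than E18.5 cap cells. Their windows also differ widely in base composition. RefSeq promoters of build GRCm38.p6 were matched for 6 of the 10 members by gene ID, namely Lama2, Lama5, Lamb1, Lamb2, Nid1 and Hspg2. Each line gives the 250 bases before the start, 5′ to 3′ on the gene's strand, with capitals for the GC box GGGCGG and the CCAAT box CCAAT read on either strand. The windows are chr13:13437352-13437601 on the plus strand for Nid1, chr12:31265043-31265292 on the plus strand for Lamb1 and chr10:27616943-27617192 on the minus strand for Lama2. The RefSeq gene span starts at 31265146 for Lamb1 and ends at 27617191 for Lama2, inside their windows. Most bases of these windows thus lie within the gene span, and RefSeq places a start further upstream. The Nid1 window ends just before its span, which starts at 13437602.
Nid1: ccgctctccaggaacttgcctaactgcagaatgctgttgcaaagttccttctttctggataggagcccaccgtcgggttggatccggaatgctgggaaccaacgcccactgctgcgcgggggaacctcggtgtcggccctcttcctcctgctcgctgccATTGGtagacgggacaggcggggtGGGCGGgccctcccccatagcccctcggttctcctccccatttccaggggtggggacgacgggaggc
Lamb1: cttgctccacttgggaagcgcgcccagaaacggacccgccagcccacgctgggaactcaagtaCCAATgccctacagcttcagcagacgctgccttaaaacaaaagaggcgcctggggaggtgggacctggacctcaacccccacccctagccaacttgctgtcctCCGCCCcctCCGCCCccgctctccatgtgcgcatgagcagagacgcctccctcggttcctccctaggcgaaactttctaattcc
Lama2: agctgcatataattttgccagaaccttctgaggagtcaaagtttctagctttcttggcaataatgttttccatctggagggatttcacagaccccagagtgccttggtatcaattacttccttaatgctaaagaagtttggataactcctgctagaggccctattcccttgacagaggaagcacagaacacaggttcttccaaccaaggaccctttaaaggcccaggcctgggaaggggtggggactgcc
The Nid1 window had 64.4% G and C with 16 CpG, and the Lamb1 window 62% with 14 CpG. The Lama2 window had 47.2% and 0 CpG, and held none of the 4 motifs searched. Over all 32851 RefSeq promoters the median was 52.4% with 6 CpG. A GC box stood in 32.7% of these promoters, a CCAAT box in 33.9%, the TATA box TATAAA in 12.4% and the AP-1 site TGACTCA in 4.46%, each on either strand with overlapping matches allowed. Nid1 had 1 GC box and 1 CCAAT box and Lamb1 had 2 GC boxes and 1 CCAAT box. A match is a description of the letters and not a bound site.

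Of the alpha chains, Lama4 was the main one in every group but the E13.5 mutant cells, and it was high in E18.5 mutant and interstitium cells. The Lama4 entry spans chr10:38965515-39110188 (mm10). For every member and in every group the lowest cell was at 0 RPKM. In E18.5 mutant cells Lama4 had a median of 16.45 RPKM and a highest value of 183 RPKM, with 31 of 44 cells at 1 RPKM or more (70.5%, 95% Clopper-Pearson interval 54.8 to 83.2%). In interstitium cells its median was 5.05 RPKM and its highest value 85.1 RPKM, with 48 of 71 cells detected (67.6%, 55.5 to 78.2%). In E18.5 cap cells its median was 0 RPKM and its highest value 93.95 RPKM, with 14 of 74 cells detected (18.9%, 10.75 to 29.7%). The mutant and interstitium cells were thus mostly Lama4-positive and the cap cells mostly not, although single cap cells reached the upper range of the interstitium. At E13.5 the highest of 29 mutant cells had 2.65 RPKM with 3 cells detected, against a highest value of 28.03 RPKM and 6 of 18 cap cells detected. Intervals here and below cover counting error only.

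Lama2, the alpha chain of muscle and peripheral nerve basement membranes, was lower than Lama4 in both E18.5 groups that held most of it. Its entry spans chr10:26981285-27616942. In E18.5 mutant cells the median was 0.115 RPKM and the highest value 119 RPKM, with 19 of 44 cells detected (43.2%, 28.4 to 58.97%). Interstitium cells had a median of 0 RPKM and a highest value of 41.3 RPKM, with 15 of 71 cells detected (21.1%, 12.3 to 32.4%). E18.5 cap cells had a median of 0 RPKM and a highest value of 21.1 RPKM, with 4 of 74 cells detected (5.41%, 1.49 to 13.3%). In share of cells the order at E18.5 was mutant, interstitium, cap. At E13.5, 3 of 29 mutant cells and 3 of 18 cap cells had Lama2, up to 10.3 RPKM in mutant and 31.6 RPKM in cap cells.

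Lama1 and Lama5, the alpha chains known from epithelial basement membranes, were rare in all groups. Lama1 was not detected at 1 RPKM in any of the 44 E18.5 mutant or 18 E13.5 cap cells, and was found in 3 interstitium, 2 E18.5 cap and 1 E13.5 mutant cell. Taken as 3 cells of the total, the limit that a count of 0 allows is 6.82% of the E18.5 mutant cells. Lama5 was found in 2 E18.5 mutant, 1 interstitium, 2 E18.5 cap, 3 E13.5 mutant and 2 E13.5 cap cells, and its highest value was 34.2 RPKM, in an E18.5 mutant cell.

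The few cells with Lama5 at E13.5 all held a complete laminin-511 set, with Lamb1 and Lamc1 also at 1 RPKM or more, in 3 mutant and 2 cap cells. In the mutant these were not 1 kind of cell. The first had 20.2 RPKM of Lama5, 22.1 of Lamb1 and 11.5 of Lamc1, together with 351 RPKM of Epcam, 89.2 of Cdh1 and 308 of Krt8, which are genes of epithelial cells. The second had 8.39 RPKM of Lama5 and 53.97 of Lamc1, with 142 RPKM of Epcam, 41.2 of Cdh1 and 184 of Krt8, and 5 of 6 ureteric markers. Both were at 0 RPKM for Nid1, Lama2 and Lama4 and had no stromal marker, but held Hspg2 at 3.89 and 4.18 RPKM. The third mutant cell had 28.9 RPKM of Lama5 with 73.8 RPKM of Six2, 5 of 8 progenitor markers and no Epcam. Both E13.5 cap cells with Lama5 had Six2, at 38.1 and 100.4 RPKM, and no Epcam. At E18.5 both mutant cells with Lama5 held 5 of 8 stromal markers along with Lama4 at 32.3 and 40.2 RPKM. The interstitium cell with Lama5 had 7 of 8 progenitor and 6 of 8 stromal markers, with Six2 at 171.6 RPKM. An E18.5 cap cell with Lama5 had 5 of 8 progenitor markers, Six2 at 16.01 RPKM and Lama4 at 0 RPKM. Another E18.5 cap cell with Lama5 had 6 of 8 stromal markers, Lama4 at 51.99 RPKM and Six2 at 0 RPKM.

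**Figure D1:**
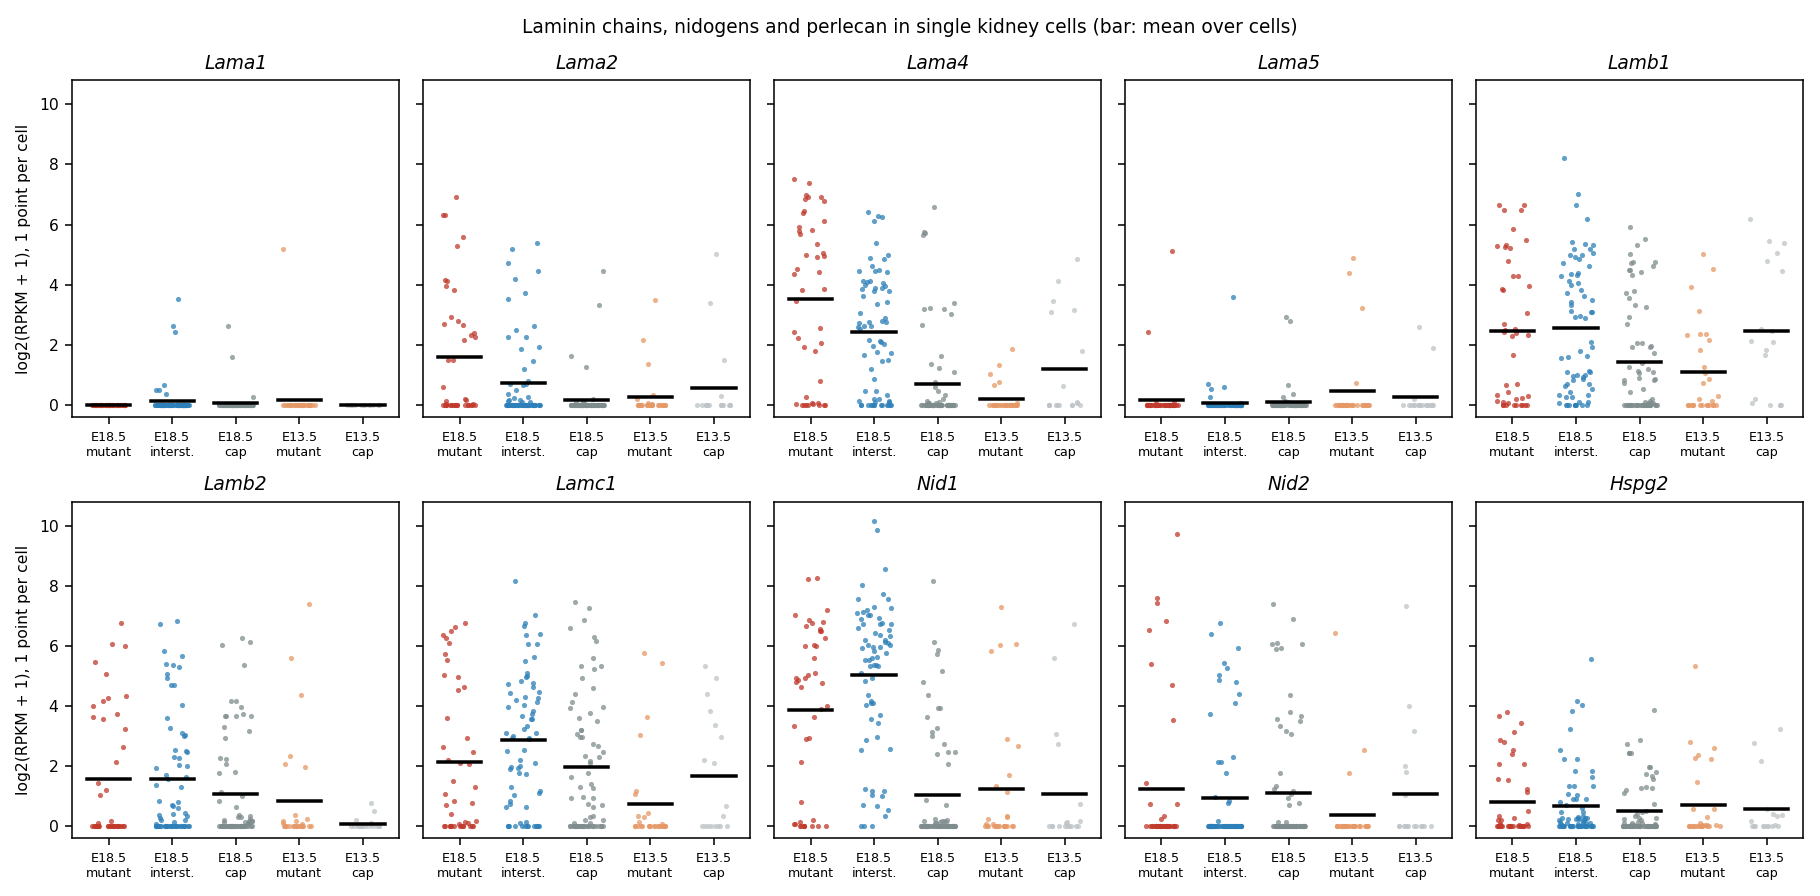
Each panel shows 1 gene and each point 1 cell as log2(RPKM + 1), with a bar at the mean of each group. Lama4 and Nid1 are spread over a high range in E18.5 mutant and interstitium cells and lie mostly at 0 in E18.5 cap cells, while Lama1 and Lama5 show single high cells only.

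Among the beta chains Lamb1 was found more widely than Lamb2. The Lamb1 entry spans chr12:31265294-31329639. In E18.5 mutant cells Lamb1 had a median of 4.1 RPKM and a highest value of 100.2 RPKM, with 25 of 44 cells detected (56.8%, 41.03 to 71.7%). In interstitium cells its median was 3.27 RPKM and its highest value 294 RPKM, with 45 of 71 cells detected (63.4%, 51.1 to 74.5%). In E18.5 cap cells its median was 0.398 RPKM and its highest value 59.6 RPKM, with 31 of 74 cells detected (41.9%, 30.5 to 53.9%). Unlike Lama4 and Nid1, Lamb1 was thus common in cap cells too. At E13.5 the mutant cells had a median of 0.14 RPKM with 11 of 29 detected (37.9%, 20.7 to 57.7%), against 3.34 RPKM and 12 of 18 in cap cells (66.7%, 40.99 to 86.7%).

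Lamb2, the beta chain of the mature glomerular basement membrane, was detected at E18.5 in 18 mutant, 30 interstitium and 22 cap cells, with highest values of 109 RPKM in mutant, 112.5 RPKM in interstitium and 75.99 RPKM in cap cells. At E13.5 it was found in 6 of 29 mutant cells, up to 166 RPKM, while none of 18 cap cells reached 1 RPKM and their highest value was 0.712 RPKM. A count of 0 of 18 allows a share of up to 16.7%, and the E13.5 mutant share was 20.7% (7.99 to 39.7%). The E13.5 cap cells were accordingly the group where the beta chain was nearly all Lamb1, which made up 99.4% of summed beta-chain RPKM. That share was 63.9% in E18.5 mutant, 65.4% in interstitium, 52.97% in E18.5 cap and 28.7% in E13.5 mutant cells. The E13.5 mutant share rests on the cell with 166 RPKM of Lamb2, without which it was 54.5%.

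Lamc1, the gamma chain shared by most laminins, stood at nearly the same level in E18.5 mutant and cap cells and higher in the interstitium. It was detected in 22 of 44 E18.5 mutant cells with a median of 0.959 RPKM and a highest value of 107 RPKM. Interstitium cells had Lamc1 in 52 of 71 with a median of 6.73 RPKM and a highest value of 287 RPKM. E18.5 cap cells had it in 36 of 74 with a median of 0.952 RPKM and a highest value of 174 RPKM. The shares were 50% (34.6 to 65.4%) in mutant, 73.2% (61.4 to 83.1%) in interstitium and 48.6% (36.9 to 60.6%) in cap cells. At E13.5, 6 of 29 mutant and 8 of 18 cap cells had it.

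Nid1, or nidogen-1, which binds the gamma chain of laminin, was the most abundant member in both E18.5 stromal-marked groups. Its entry spans chr13:13437602-13512275. In E18.5 mutant cells the median was 26.7 RPKM and the highest value 306 RPKM, with 31 of 44 cells detected (70.5%, 54.8 to 83.2%). In interstitium cells the median was 53.98 RPKM and the highest value 1146 RPKM, with 64 of 71 cells detected (90.1%, 80.7 to 95.9%). In E18.5 cap cells the median was 0 RPKM and the highest value 284 RPKM, with 18 of 74 cells detected (24.3%, 15.1 to 35.7%). Almost every interstitium cell thus had Nid1 and most cap cells had none, and the highest cap cell, far above the next at 69.8 RPKM, lay within the range of the mutant cells. At E13.5 Nid1 was found in 9 of 29 mutant cells (31.03%, 15.3 to 50.8%), up to 155 RPKM, and in 4 of 18 cap cells (22.2%, 6.41 to 47.6%), up to 106 RPKM.

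Nid2, the second nidogen, did not follow Nid1 in its shares across the E18.5 groups. It was detected in 9 of 44 E18.5 mutant cells (20.5%), 15 of 71 interstitium cells (21.1%), 20 of 74 E18.5 cap cells (27.03%), 3 of 29 E13.5 mutant cells (10.3%) and 6 of 18 E13.5 cap cells (33.3%). Its highest values were 850 RPKM in E18.5 mutant, 108 in interstitium, 166 in E18.5 cap, 84.8 in E13.5 mutant and 160 RPKM in E13.5 cap cells. In E18.5 mutant cells the highest cell stood apart from the next, at 193 RPKM. Cap cells often held Nid2 without Nid1: Nid2 alone was detected in 1 mutant, 0 interstitium and 13 cap cells of E18.5, and Nid1 alone in 23 mutant, 49 interstitium and 11 cap cells. The last 386 bases of the Nid2 entry are shared with the entry 2700060E02Rik, which was detected in 200 of all grouped cells, and without stated strand, reads there cannot be told apart.

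Hspg2, or perlecan, was low and nearly flat across the groups. It was detected in 14 of 44 E18.5 mutant, 16 of 71 interstitium, 17 of 74 E18.5 cap, 7 of 29 E13.5 mutant and 3 of 18 E13.5 cap cells. Its mean log2(RPKM + 1) lay between 0.51 in E18.5 cap and 0.82 in E18.5 mutant cells. Its highest value in any grouped cell was 46.1 RPKM, in the interstitium.

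**Figure D2:**
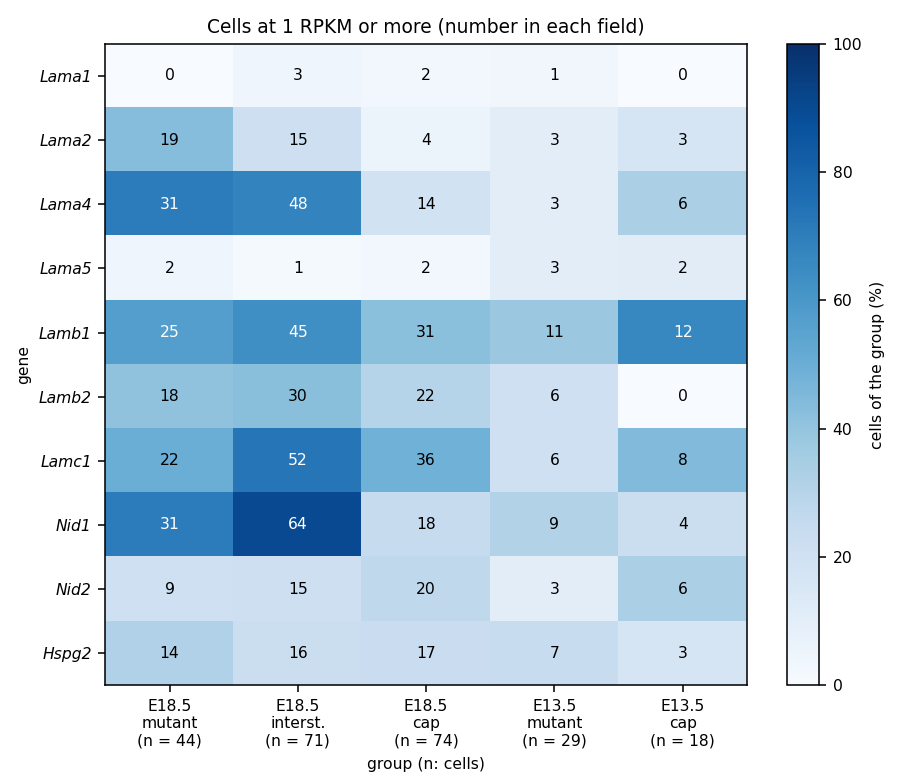
Rows are genes and columns are groups, the number in each field counts the cells at 1 RPKM or more and the shade gives their share in percent. Nid1 is the darkest field, with 64 of 71 interstitium cells, and Lama1 and Lama5 are pale throughout, with at most 3 cells in a group.

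Set in order of mean log2(RPKM + 1), Lama4 was highest in E18.5 mutant cells (3.53 ± 2.69, SD between 44 cells), then in interstitium (2.42 ± 1.95, 71 cells), E13.5 cap (1.18 ± 1.72, 18 cells), E18.5 cap (0.68 ± 1.54, 74 cells) and E13.5 mutant cells (0.20 ± 0.47, 29 cells). Nid1 was highest in interstitium (5.04 ± 2.47), then in E18.5 mutant (3.88 ± 2.79), E13.5 mutant (1.24 ± 2.22), E13.5 cap (1.07 ± 2.08) and E18.5 cap cells (1.03 ± 1.91). Across all 10 members, neighbours in such orders differed by less than the mean SD of the 2 groups, except for Nid1 in E18.5 mutant over E13.5 mutant cells, a step of 2.64.

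The first comparison sets Pax2 mutant against wild-type cells labelled as cap at E18.5. E18.5 mutant cells had more Lama4, Nid1, Lama2 and Lamb1 than E18.5 cap cells. Lama4 averaged 3.53 in mutant and 0.68 in cap cells, a difference of 2.85 log2 units, and Nid1 averaged 3.88 in mutant and 1.03 in cap cells, also a difference of 2.85. Lama2 averaged 1.61 ± 2.12 in mutant and 0.15 ± 0.68 in cap cells, a difference of 1.46. Lamb1 averaged 2.47 ± 2.36 in mutant and 1.43 ± 1.84 in cap cells, a difference of 1.04. The differences of Lama4 and Nid1 exceeded the pooled SD between cells, which was 2.19 and 2.39, and those of Lama2 and Lamb1 did not.

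In all, 4 of the 10 members were higher in E18.5 mutant than in E18.5 cap cells by 1 log2 unit or more, where 4.51% of the 11100 genes tested were, and 0 were lower, where 23.2% of the genes were. Genes tested are those that reach 1 RPKM in at least 10% of cells in either group, a filter that 8 members passed and Lama1 and Lama5 did not. The median difference was 0.39 over the 10 members and -0.40 over all genes tested, beside the lower number of genes detected per mutant cell. Among cells with 3000 to 5000 genes, 33 mutant and 26 cap cells, the differences were 2.49 for Lama4, 3.19 for Nid1, 1.32 for Lama2 and 0.97 for Lamb1. The Lamb1 difference was also under 1, at 0.77, after leaving out cells that held LOC100503946, a pseudogene of ATP synthase, at 20000 RPKM or above, which were 4 of 44 mutant and 20 of 74 cap cells.

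Both the share of positive cells and the level within them differed between E18.5 mutant and cap cells for Lama4, though not for Lama4 alone. Among detected cells alone Lama4 averaged 4.98 ± 1.76 in mutant, 3.52 ± 1.36 in interstitium and 3.41 ± 1.84 in cap cells of E18.5 on the log2(RPKM + 1) scale. Detected Nid1 averaged 5.46 in mutant, 5.55 in interstitium and 4.08 in cap cells. The mutant cells that held Nid1 thus held it at the interstitial level, while those that held Lama4 stood above it on average. In mutant minus cap, the mean within detected cells was higher for every member detected in both groups, from 0.28 for Lamc1 to 1.94 for Nid2. Some of these means rest on few cells, with Lama5 detected in 2 mutant and 2 cap cells. Lama2 was detected in 19 mutant and 4 cap cells, and Nid2 in 9 mutant and 20 cap cells. No such value over all genes stands beside them, so this shared direction is not read as particular to the members. Against interstitium, detected Nid2 was higher in mutant cells by 1.57 and detected Lama4 by 1.46. Mutant cells had fewer genes detected, and the part of this in these levels was not tested.

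E18.5 mutant cells set against interstitium cells, the wild-type stroma of the same age, had 8 of the 10 members within 1 log2 unit, where 74.6% of all genes tested were, so this count is near the background. Lama4 was higher in mutant cells by 1.11, the 1 member past 1 log2 unit where 2.05% of 10903 genes were. Nid1 was lower in mutant cells, at 3.88 against 5.04 in interstitium, a difference of -1.16, the 1 member lower by 1 log2 unit where 23.4% of genes were. Lamb1 differed by -0.09 and Lamb2 by -0.01, and the median difference of the members was 0.04, against -0.41 over all genes tested. Neither called difference exceeded its pooled SD between cells. With cells of 3000 to 5000 genes alone, neither reached 1, at 0.98 for Lama4 and -0.89 for Nid1, and without the 7 interstitium cells with endothelial and the 2 mutant cells with immune markers Nid1 differed by -0.84. Median-ratio scaling gave -0.96 for Nid1, and leaving out the pseudogene-high cells gave -0.64. Mutant cells came from pool 4 and interstitium cells from pools 2 and 3, so pool and group cannot be told apart, and the sexes differed too.

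Interstitium cells, set against E18.5 cap cells, give the wild-type contrast between the lineages. Nid1 showed the largest difference of any member in this contrast, with a mean of 5.04 in interstitium against 1.03 in cap cells, or 4.0 log2 units. Lama4 was higher by 1.74 and Lamb1 by 1.12, while Lamc1 was higher by 0.91, just short of 1 log2 unit. Nid2 differed by -0.15 and Hspg2 by 0.18. In this contrast 3 members were higher by 1 log2 unit, where 5.94% of 11219 genes were, and 0 were lower, where 2.7% were, with a median of 0.54 over the members and 0.01 over all genes. Within pool 2, which held 22 interstitium cells and all 74 cap cells under different dates, the differences were 4.48 for Nid1, 2.35 for Lama4, 1.58 for Lamb1 and 1.24 for Lamc1. Interstitium cells of pool 2 averaged 5.51 for Nid1 and 3.03 for Lama4, against 4.83 for Nid1 and 2.15 for Lama4 in the 49 cells of pool 3. Lamb1 differed by 0.68 without the cells high in the ATP synthase pseudogene and by 0.99 without the cells with endothelial markers.

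**Figure D3:**
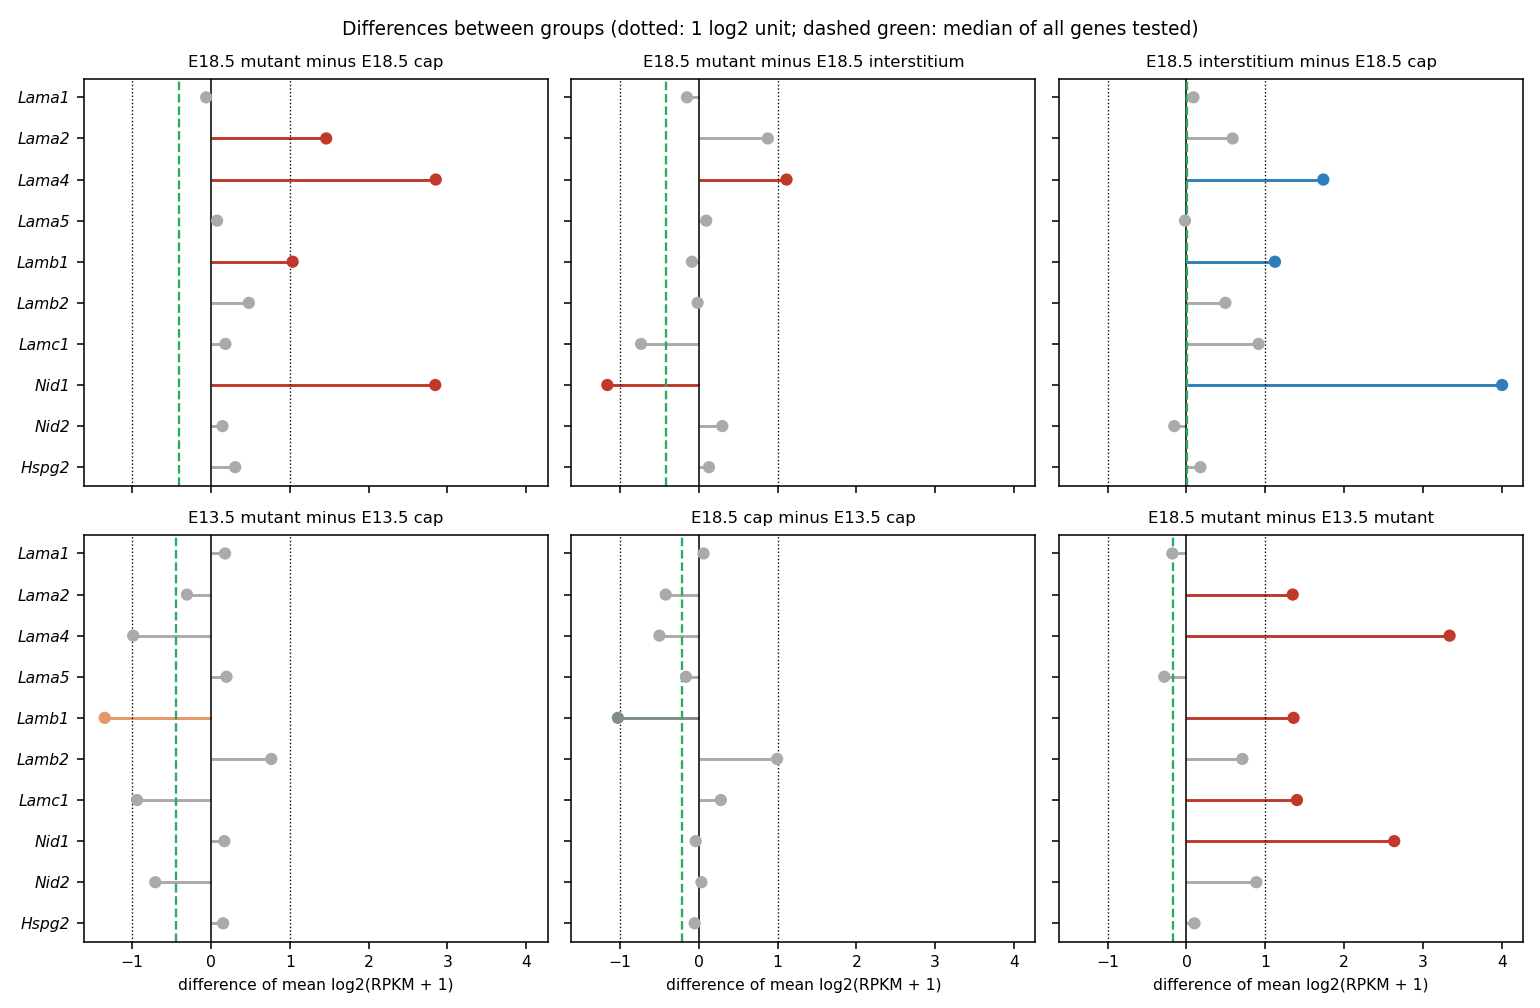
Each panel shows 1 comparison and each point the difference of mean log2(RPKM + 1) for 1 gene, with dotted lines at 1 log2 unit, a dashed line at the median of all genes tested and colour for members past 1 log2 unit. Nid1 reaches 4.0 in interstitium minus cap, and Lama4 and Nid1 both reach 2.85 in E18.5 mutant minus cap, while at E13.5 Lamb1 alone passes the line, on the lower side.

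At E13.5 the mutant cells did not show this pattern. Lama4 averaged 0.20 in mutant and 1.18 in cap cells, a difference of -0.99, and Nid1 averaged 1.24 in mutant and 1.07 in cap cells, a difference of 0.17. Lamb1 averaged 1.11 ± 1.51 in mutant and 2.46 ± 2.22 in cap cells, a difference of -1.35, and Lamc1 differed by -0.94. In this comparison 0 members were higher by 1 log2 unit, where 1.43% of 11449 genes were, and 1 was lower, where 27.7% were. The median difference was -0.08 over the members and -0.45 over all genes, beside the fewer genes detected per mutant cell, and a lower count of 1 in 10 is no more than the background. Both groups came from pool 3, but the dates in their titles and the sexes differed. The E13.5 cap group holds 1 cell with 5 of 6 endothelial markers, with Kdr among them, without which Lamb1 differed by -1.21. Among cells with 3000 to 5000 genes Lamb1 differed by -2.32, with 17 mutant and 2 cap cells.

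Between ages, E18.5 mutant cells had more of 5 members than E13.5 mutant cells. Lama4 differed by 3.34, Nid1 by 2.64, Lamc1 by 1.40, Lamb1 by 1.36 and Lama2 by 1.35, and the first 2 exceeded the pooled SD between cells. These 5 of 10 stand beside 6.69% of 10872 genes, and 0 members were lower, where 11.5% of genes were. The members' median was 1.12, against -0.16 over all genes. Stromal markers moved with these members: at least 3 of 8 were detected in 44 of 44 E18.5 and 20 of 29 E13.5 mutant cells, and 7 of the 8 were higher by 1 log2 unit at E18.5, with Pdgfra at 6.11 in E18.5 and 1.18 in E13.5 mutant cells. Their summed level ran from 89.7 to 7835 RPKM per cell at E18.5 and from 0.118 to 1776 RPKM at E13.5, and their part in the result was not tested. Lamb1 differed by 0.91 among cells with 3000 to 5000 genes.

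E18.5 cap cells, set against E13.5 cap cells, had Lamb1 past 1 log2 unit and Lamb2 just short of it. Lamb1 averaged 1.43 in E18.5 and 2.46 in E13.5 cap cells, a difference of -1.02, and Lamb2 averaged 1.09 in E18.5 and 0.10 in E13.5 cap cells, a difference of 0.99. Here 0 members were higher by 1 log2 unit, where 2.53% of 11423 genes were, and 1 was lower, where 14.5% were. Lama4 differed by -0.50 and Nid1 by -0.04. The Lamb2 difference ranged from 0.35 to 2.58 over 10 alternatives and stayed under 1 in 6 of them. It passed 1 with a pseudocount of 0.1 RPKM, with the log2 ratio of group mean RPKM, with values under 1 RPKM set to 0 and among cells with 3000 to 5000 genes. The Lamb1 difference fell short of 1 with median-ratio scaling (-0.77), without the pseudogene-high cells (-0.75) and without the endothelial-marked cell (-0.89), and was -2.38 among cells with 3000 to 5000 genes, of which 2 were E13.5 cells. Age, pool and, for the cap, sex differ together in both comparisons between ages and cannot be told apart, and the 3 comparisons with E18.5 mutant cells share those cells, as the 3 with E18.5 cap cells share theirs.

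The chains of a laminin must be made in 1 cell to form a trimer, so transcripts were also counted together per cell. Any alpha chain was detected in 38 of 44 E18.5 mutant cells (86.4%), 51 of 71 interstitium cells (71.8%) and 18 of 74 E18.5 cap cells (24.3%). A beta chain was found in 32 mutant, 51 interstitium and 44 cap cells, and Lamc1 in 22 mutant, 52 interstitium and 36 cap cells. The alpha chain was therefore the subunit in which cap cells stood lowest. Beta and gamma chains without an alpha chain were found in 16 cap, 1 mutant and 6 interstitium cells. Joint counts here and below depend on the share of each chain alone, and whether chains went together beyond those shares was not tested. An alpha, a beta and the gamma chain were detected together in 15 mutant (34.1%), 35 interstitium (49.3%) and 11 cap cells (14.9%) of E18.5, and in 4 mutant and 5 cap cells of E13.5.

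By named trimer, the laminin-411 set was found in 10 of 44 E18.5 mutant cells (22.7%, 11.5 to 37.8%), 30 of 71 interstitium cells (42.3%, 30.6 to 54.6%) and 7 of 74 E18.5 cap cells (9.46%, 3.89 to 18.52%). The laminin-421 set, with Lamb2 in place of Lamb1, was found in 8 mutant, 21 interstitium and 4 cap cells. The laminin-211 set was found in 6 mutant, 10 interstitium and 3 cap cells. At E13.5, 0 of 29 mutant and 2 of 18 cap cells held the laminin-411 set. Lama4 sets were thus the most frequent in both stromal-marked groups. Mutant cells had the fewest genes detected, and the number of members found in a cell had a Pearson r with its number of genes of 0.27 in mutant, -0.07 in interstitium and 0.11 in cap cells of E18.5, given as a description.

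Lama4 was the highest alpha chain in 28 of the 38 mutant, 43 of the 51 interstitium and 14 of the 18 cap cells of E18.5 that had one. It made up 76.9% of summed alpha-chain RPKM in mutant, 78.3% in interstitium and 84.6% in cap cells, with Lama2 next at 21.3% in mutant, 18.45% in interstitium and 9.44% in cap cells. At E13.5 the cap cells kept Lama4 as the main chain, at 58.8% of the sum, while in mutant cells Lama5 made up 50.2%, Lama1 30.6% and Lama4 5.6%. The E13.5 mutant sum rests on few cells, since 10 of 29 had an alpha chain and 1 cell gave all of Lama1.

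**Figure D4:**
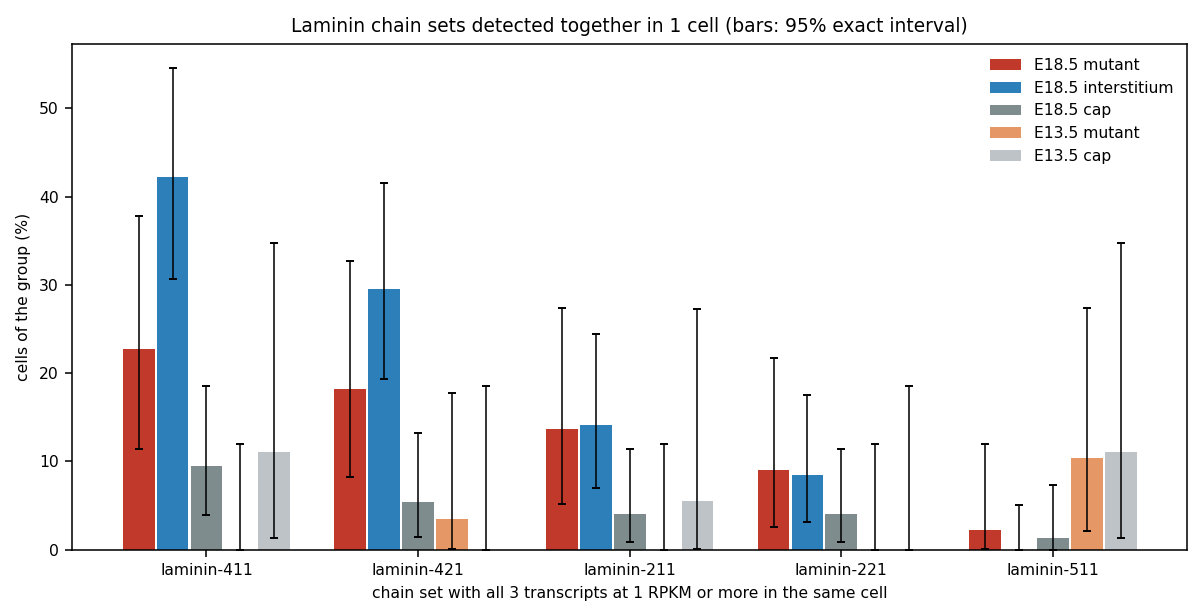
Bars give the share of cells in percent with all 3 chains of a laminin at 1 RPKM or more, for the 5 groups, with 95% exact intervals. Laminin-411 reaches 42.3% in interstitium, against 9.46% in E18.5 cap cells, and laminin-511 is the set seen in both E13.5 groups, in 3 mutant and 2 cap cells.

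Lama4 and Nid1 were found in the same cell in 22 of 44 E18.5 mutant cells (50%), 46 of 71 interstitium cells (64.8%) and 7 of 74 cap cells (9.46%). Lama4 without Nid1 was found in 9 mutant, 2 interstitium and 7 cap cells, and Nid1 without Lama4 in 9 mutant, 18 interstitium and 11 cap cells. Among cells with Lama4, Nid1 was found in 70.97% in mutant, 95.8% in interstitium and 50% in cap cells, beside 70.5% of all mutant, 90.1% of all interstitium and 24.3% of all cap cells. In mutant and interstitium cells the share was thus near that of the whole group. Within E18.5 cap cells the levels of the 2 genes had a Pearson r of 0.46 over 74 cells. It was 0.26 in interstitium, -0.14 in E18.5 mutant, -0.07 in E13.5 mutant and 0.01 in E13.5 cap cells. These values are described here without a test, since cells share library and depth. The number of members detected per cell had a median of 4 in mutant and interstitium and 2 in cap cells, and 5 or more were found in 14 mutant, 30 interstitium and 10 cap cells.

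**Figure D5:**
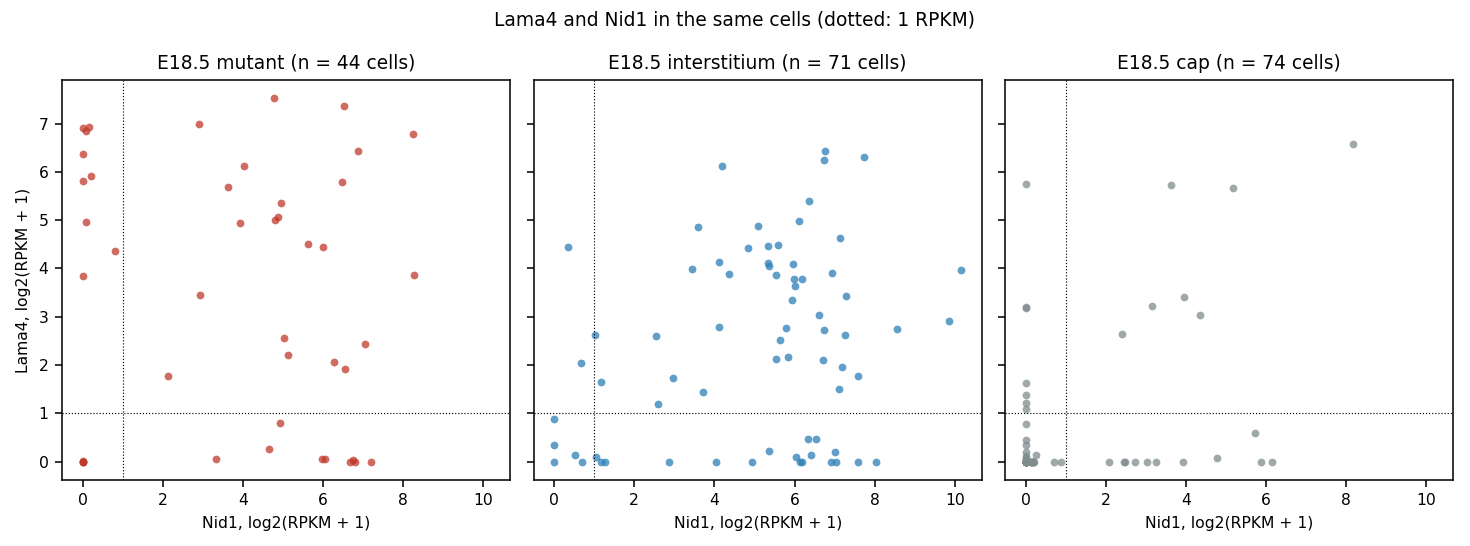
Each point is a cell, placed by Nid1 (horizontal) and Lama4 (vertical) as log2(RPKM + 1), for E18.5 mutant, interstitium and cap cells, with dotted lines at 1 RPKM. Points fill the upper right field in 22 mutant and 46 interstitium cells, and 49 cap cells lie in the lower left.

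Cap cells were not uniform in these genes. Of the 74 E18.5 cap cells, 62 had the progenitor factor Six2 at 1 RPKM or more and 12 did not, with no cell between 0.5 and 2 RPKM. Lama4 averaged 0.40 ± 1.07 in cells with Six2 and 2.17 ± 2.56 in those without, and Nid1 averaged 0.82 ± 1.68 in cells with Six2 and 2.12 ± 2.67 in those without. Nid2 stood the other way, at 1.29 ± 2.18 with Six2 and 0.21 ± 0.49 without. Lamb1 averaged 1.42 with Six2 and 1.52 without, and Lamc1 averaged 1.94 with Six2 and 2.08 without, so the means of these chains lay close together in both kinds of cap cell. Cells without Six2 had a median of 3894 genes detected, against 5458 in those with it, and its part in these differences was not tested. Lama4 correlated with the mean log2 level of 8 stromal markers at r = 0.59 across the 74 cap cells, r = 0.36 across the 71 interstitium cells and r = -0.32 across the 44 mutant cells, again as a description.

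Markers of other cell types touched the nidogens, Lamb1 and Lamb2. In 7 of 71 interstitium cells 2 or more of 6 endothelial markers were detected, against 0 E18.5 mutant and 0 E18.5 cap cells. Over all 71 interstitium cells Cdh5 and Tek were detected in 9 each, Emcn in 4, Kdr in 3 and Pecam1 in 0. Nid2 averaged 3.97 ± 2.55 in these 7 cells and 0.63 ± 1.53 in the other 64, and Lamb2 averaged 3.84 ± 2.08 in the 7 cells and 1.34 ± 1.86 in the others. Nid1 averaged 6.27 ± 0.44 in the 7 cells and 4.90 ± 2.56 in the others. Lamb1 averaged 3.77 ± 1.35 in the 7 cells, all of them detected, and 2.42 ± 2.20 in the others. Lama1 and Lama5 were at 0 RPKM in all 7 cells. All 7 also held Pdgfra, a receptor of stromal cells, between 5.87 and 40.2 RPKM. The part of these cells in the nidogen, Lamb1 and Lamb2 levels was not tested beyond the values without them. At E13.5, 1 cap cell had 5 of 6 endothelial markers, with Kdr at 284 and Cdh5 at 96.6 RPKM and no Pdgfra. It held the highest Nid1 (106 RPKM) and Nid2 (160 RPKM) of that group, and without it Nid1 averaged 0.74 and Nid2 0.71 in E13.5 cap cells. The endothelial sum per cell ranged from 0 to 213 RPKM in E18.5 mutant, 0 to 229 in interstitium, 0 to 15.4 in E18.5 cap, 0 to 83.4 in E13.5 mutant and 0 to 431.5 RPKM in E13.5 cap cells, and Flt1 was detected in none. Among 44 mutant cells of E18.5, 1 held 4 of 6 immune markers with Tyrobp at 7285 RPKM, and its only member detected was Lamb1, at 2.16 RPKM.

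Lama3, Lamb3 and Lamc3, laminin chains known from skin, other epithelia and nerve, stayed low: none of these 3 passed 1 log2 unit in any of the 6 comparisons. Lamc3 was the most frequent of the 3, in 2 E18.5 mutant, 0 interstitium, 5 E18.5 cap, 3 E13.5 mutant and 1 E13.5 cap cell.

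Of 20 other basement membrane genes, 2 were higher and 0 lower in E18.5 mutant than cap cells by 1 log2 unit, Smoc2 by 3.47 and Fbln1 by 2.37, which encode the matrix proteins SMOC2 and fibulin-1. None of the 6 type IV collagen genes passed 1 log2 unit here. Col4a1 averaged 2.11 ± 2.74 in mutant and 2.57 ± 1.89 in cap cells, and Col4a2 averaged 1.76 ± 2.58 in mutant and 2.30 ± 2.0 in cap cells, differences of -0.46 and -0.54 beside the median of -0.40 over all genes. In interstitium minus cap, 4 were higher, Col4a3 by 2.27, Smoc2 by 1.99, Fbln1 by 1.98 and Fras1 by 1.09, and 0 were lower. In mutant minus interstitium 5 were lower, with differences of -2.23 for Col4a3, -1.47 for Fras1, -1.34 for Agrn, -1.06 for Pxdn and -1.02 for Col4a4, and Smoc2 was higher by 1.48. At E13.5 0 were higher and 5 lower in mutant than cap cells, with differences of -1.79 for Sparc, -1.73 for Col4a1, -1.10 for Pxdn and -1.08 each for Col4a2 and Fbln1. In E18.5 minus E13.5 mutant cells Smoc2 (3.27), Sparc (2.96), Fbln1 (1.38) and Col4a1 (1.05) were higher and Agrn (-1.77) and Frem1 (-1.07) lower, and in E18.5 minus E13.5 cap cells 2 were lower, Fbln1 (-2.07) and Pxdn (-1.10). These counts stand beside the shares of all genes already given for each comparison. The 5 of 20 lower stand beside 23.4% of all genes in mutant minus interstitium and 27.7% at E13.5. The 2 of 20 lower stand beside 11.5% between mutant ages and 14.5% between cap ages. The lower counts are thus near or under the background.

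Of 14 genes for receptors of these matrix proteins, 1 was higher and 2 were lower in E18.5 mutant than cap cells, and the counts were the same at E13.5. The lower counts are under the 23.2% of all genes at E18.5 and the 27.7% at E13.5. Itga8, the integrin alpha chain that binds nephronectin in the cap mesenchyme, averaged 0.28 in mutant and 2.85 in cap cells of E18.5, a difference of -2.58, and differed by -1.13 at E13.5 and by -1.62 in interstitium minus cap. Sdc2, a heparan sulfate proteoglycan of the cell surface, was higher in mutant than cap cells by 2.11 at E18.5 and 1.90 at E13.5, and higher in mutant than interstitium cells by 1.61. Sdc4, another cell-surface syndecan, differed by -1.55 in mutant minus cap cells at E18.5 and by -1.13 at E13.5. Itgb1, the beta chain of most laminin-binding integrins, averaged 4.65 in mutant, 5.87 in interstitium and 4.69 in cap cells of E18.5, and with Itgav it was the receptor gene past 1 log2 unit both in interstitium minus cap (1.19 and 1.76) and, lower, in mutant minus interstitium (-1.22 and -1.69). Between ages Itga6, a laminin-binding integrin alpha chain, differed by -1.27 in E18.5 minus E13.5 mutant cells, and Itgb1 (1.17) and Sdc4 (1.13) were higher in E18.5 than E13.5 cap cells. Dag1, which encodes the laminin receptor dystroglycan, passed 1 log2 unit in none of the 6 comparisons.

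By Pearson r of log2(RPKM + 1) over all grouped cells, among 10491 genes found in 10% of them, the genes most like Nid1 were Col3a1 (0.65), Sfrp1 (0.64) and Col1a1 (0.64). Among those most like Lama4 were Ntn1 (0.62) and Penk (0.60). With group means removed, the values were 0.40, 0.39 and 0.42 for Nid1 and 0.48 and 0.40 for Lama4, so part of the likeness lay in the shared difference between groups. For the other members the highest r was 0.43, between Lamb2 and Col6a2, which in values as sparse as these is weak. Nid2 was nearest to Col14a1 (0.41), and Lamb1 was nearest to Lama4 (0.38).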

How the data were processed

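Single cells of mouse embryonic kidneys were the samples, 237 in the deposited table and 236 in the 5 labelled groups. The authors deposited RPKM per gene entry, made from reads aligned to mm10 with TopHat, per the submitters' processing notes. The TopHat version, gene models, strand setting and counting rule are not given in the sources used here. No counts were given, and low values gave no steps of whole reads, so the depth of a cell is unknown and its detected genes are given instead. All 237 columns were matched to samples by title, and 0 columns belonged to no sample. The highest correlation between 2 cells was 0.809, so none was a duplicate.

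From these values log2(RPKM + 1) was averaged over the cells of a group. A gene was called detected at 1 RPKM, called different at 1 log2 unit, and counted in the background if found in at least 10% of cells in either group. With 1 sample a group no test was made. Shares carry exact Clopper-Pearson intervals at 95%. For a share of 0 the limit printed is 3 cells of the total, in place of the exact bound. Scripts were tested on shuffled E18.5 cap values in which widely detected genes were changed by a known factor. The members are sparser than those genes, so that test does not cover genes at their level. The members and gene lists were chosen with earlier results of these data known. Genes named are the 10 members, genes of 3 lists of related genes past 1 log2 unit, the 3 genes nearest to each member by Pearson r, and markers from 9 cell type lists. Exceptions, named after their values were seen, are LOC100503946, 2700060E02Rik, the overlap partner of Nid2, and the list members Col4a1, Col4a2, Dag1 and Lamc3, given with values below that size. Some genes that these rules name are not reported here. No doublet caller was used. Promoter sequences are those of RefSeq, and proteins were not used here. Alternatives were 10 planned ones and 1 added after seeing the data. Python 3.11.15, numpy 2.4.6, pandas 2.3.3 and SciPy 1.17.1 were used.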

Additional observations from a re-analysis of the deposited data

Results flagged for a closer look

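Lamb1 stood on opposite sides of 0 in the comparisons of mutant with cap cells at the 2 ages. It was higher in mutant than cap cells at E18.5, with a difference of 1.036 log2 units, and lower at E13.5, with a difference of -1.348. The difference between these 2 values was not tested, since each group is 1 sample, and the groups overlap widely: single cells of both kinds were at 0 RPKM at both ages. In the direct comparison of ages, E18.5 minus E13.5, Lamb1 differed by 1.36 in mutant cells and by -1.02 in cap cells.

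The E13.5 wild-type cell that the labels put in no group had 9.126 RPKM of Hspg2, above the highest of the 18 E13.5 cap cells at 8.388 RPKM. Its other members were within the range of those cells, with 24.5 RPKM of Lamb1, 25.99 RPKM of Lamc1 and at most 0.123 RPKM of any other. It is a single cell from pool 4, while all E13.5 cap cells came from pool 3.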

How the results depend on the processing

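The differences of Lama4 and Nid1 in E18.5 mutant minus cap cells kept their side of 1 log2 unit under all 10 alternatives (1.32 to 4.50 for Lama4 and 1.41 to 4.32 for Nid1), as did Nid1 in interstitium minus cap (2.05 to 6.06 over 11) and Lama4 (1.53 to 5.29) and Nid1 (1.28 to 3.93) in E18.5 minus E13.5 mutant cells. Of 610 recomputed differences, 25 lost a call, 39 gained one and 0 reversed a called sign. Most of the 610 belong to differences that were not called, which had no called sign to reverse. Median-ratio scaling moved the median of all genes to -0.28 in E18.5 mutant minus cap, -0.31 in mutant minus interstitium, -0.28 in E13.5 mutant minus cap and -0.09 between cap ages. Counts moved with the pseudocount, which sets the size of every difference of low genes. With a pseudocount of 0.1 RPKM the counts were 2 higher and 2 lower for mutant minus interstitium, 5 higher for interstitium minus cap, 1 higher and 4 lower for E13.5 mutant minus cap, and 1 higher for E18.5 minus E13.5 cap. With a pseudocount of 10 RPKM they were 2 higher for E18.5 mutant minus cap, 0 and 0 for mutant minus interstitium, 1 higher for interstitium minus cap, 0 lower for E13.5 mutant minus cap, 0 lower between cap ages and 2 higher between mutant ages.

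With the log2 ratio of group mean RPKM, which weights the highest cells, there were 3 higher and 0 lower for mutant minus interstitium, 3 higher and 4 lower for E13.5 mutant minus cap, 1 higher and 2 lower between cap ages, and 1 lower between mutant ages with a median of 1.90. Median-ratio scaling, leaving out pseudogene-high cells and leaving out cells with endothelial or immune markers (the alternative added after seeing the data) each gave 0 lower for mutant minus interstitium and 0 lower between cap ages. Values under 1 RPKM set to 0 gave 1 higher between cap ages. Cells with 3000 to 5000 genes, only 2 of them E13.5 cap cells, gave 5 lower and a median of -0.84 for E13.5 mutant minus cap (17 mutant cells) and 1 higher and 4 lower between cap ages (26 E18.5 cells). The cause was not tested for these. The share of all genes past 1 log2 unit stayed within 1.5 times under the alternative filter in 12 of 12 cases, and 55 of 180 shares of detected cells left their interval with a detection limit above 0 or at 5 RPKM. No paired analysis was possible because the cell numbers in the titles only name cells and pair none across groups.

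Limits are 1 sample a group, unknown depth, fewer genes detected in mutant cells, and date, pool and sex that differ with group.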
